A study of Homo sapiens with 16 samples.

Results

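Regnase, Roquin and TTP proteins are RNA-binding factors that shorten the life of inflammatory mRNAs, and MALT1 is the paracaspase that cleaves several of them. 9 genes of this group, chosen by symbol, were followed through RNA sequencing of 16 libraries: ZC3H12A, ZC3H12C, N4BP1, RC3H1, RC3H2, ZFP36, ZFP36L1, ZFP36L2 and MALT1. They are 9 of the 18227 genes in the deposited tables, and all 9 had values in every library. A549 and H2023 are established cell lines from human non-small cell lung tumours, and each was sequenced as wild type and as cells labelled ZC3H12A knockout. Cells grew under normal conditions (3 days) or under conditions that enrich stem-like cells, called oncosphere culture (7 days), so the condition and its duration cannot be told apart. The 2 lines, 2 genotypes and 2 cultures gave 8 groups of 2 libraries. The titles name 1 clone per line for the libraries labelled knockout, so an effect of the edit and other properties of that clone cannot be told apart. The labels do not say whether replicates were separate cultures, so p-values measure the spread between these libraries, which may be technical.

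Regnase-1, the product of ZC3H12A, is an RNase that cuts stem-loops in mRNAs together with the helicase UPF1, and it is known to act on its own mRNA. Roquin-1 and Roquin-2, made from RC3H1 and RC3H2, bind similar stem-loops and recruit the CCR4-NOT deadenylase. Tristetraprolin (TTP, made from ZFP36) and its relatives ZFP36L1 and ZFP36L2 bind AU-rich elements and recruit the same deadenylase. Several of these genes are induced by NF-kB or stress kinases and feed back on those pathways.

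The promoters of 3 members are shown, namely those of the targeted gene, inside which a divergent noncoding transcript starts, and of the members with the largest rise and fall between cultures in A549 wild type. RefSeq (GRCh38.p14) gave 10 windows for 8 of the 9 members, each 300 bases long with 250 before and 50 after the start. Sequences run 5′ to 3′ on the gene's strand, and capitals mark exact matches on either strand to the TATA box (TATAAA), the GC box (GGGCGG), the cAMP response element (TGACGTCA), a pair of NF-kB consensus sites, the AP-1 letters TGANTCA, and CCAAT.
ZC3H12A, chr1:37474330-37474629, + strand: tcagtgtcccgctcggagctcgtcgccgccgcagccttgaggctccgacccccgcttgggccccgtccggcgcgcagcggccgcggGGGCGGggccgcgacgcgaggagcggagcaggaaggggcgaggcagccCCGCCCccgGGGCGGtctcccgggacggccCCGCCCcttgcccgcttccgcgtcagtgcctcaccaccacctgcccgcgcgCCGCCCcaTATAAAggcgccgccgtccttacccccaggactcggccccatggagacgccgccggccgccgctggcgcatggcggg
ZFP36, chr19:39406597-39406896, + strand: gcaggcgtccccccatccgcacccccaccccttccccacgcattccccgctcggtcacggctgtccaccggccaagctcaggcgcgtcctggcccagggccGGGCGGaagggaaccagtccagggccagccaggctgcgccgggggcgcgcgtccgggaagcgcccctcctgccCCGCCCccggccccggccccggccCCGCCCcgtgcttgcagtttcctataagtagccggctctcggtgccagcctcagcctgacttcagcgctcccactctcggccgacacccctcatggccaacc
MALT1, chr18:58671215-58671514, + strand: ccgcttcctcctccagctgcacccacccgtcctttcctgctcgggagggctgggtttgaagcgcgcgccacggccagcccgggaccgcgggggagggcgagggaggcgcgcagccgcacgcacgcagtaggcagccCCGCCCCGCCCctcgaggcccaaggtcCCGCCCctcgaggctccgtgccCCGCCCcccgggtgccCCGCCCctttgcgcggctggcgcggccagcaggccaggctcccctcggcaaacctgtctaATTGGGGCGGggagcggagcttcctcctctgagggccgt
The ZC3H12A window holds 5 GC boxes and a TATA box that begins 27 bases before the RefSeq start. Gene positions and distances given below come from the GENCODE annotation, whose ZC3H12A start differs from the RefSeq one. The ZFP36 window holds 3 GC boxes. The MALT1 window holds 6 GC boxes, of which the first pair overlap each other and the last overlaps a CCAAT match. Among all 35116 promoter windows of this length, 45.0% hold a GC box, 34.6% CCAAT and 11.5% a TATA box. No NF-kB or AP-1 match occurs in these 3 windows, which says only that those exact letters are not there. Elsewhere among the members, the RC3H2 window holds an NF-kB match, found in 0.145% of windows, and those of N4BP1 and ZFP36L1 hold TGACGTCA, found in 1.85%.

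Levels are given in the TPM unit, made by the authors, which scales read numbers by gene length within a library. Differences are log2 fold changes of TPM + 1, with the standard error (SE), from limma over all 16 libraries, and a gene was called at a Benjamini-Hochberg adjusted p under 0.05 over all 18227 genes. This scale understates changes of low genes, chiefly ZC3H12C and RC3H1 here. In such bulk samples, fewer cells of a type and less RNA per cell cannot be told apart. Single libraries have no known depth, since TPM does not keep it. The authors' mean normalized counts of the members ran from 408 (ZC3H12C) to 3955 (ZFP36L1), so none was measured near the bottom of the range. Between replicates r was 0.977 to 0.990 across genes. The mitochondrial share of TPM was 10.3% to 18.7% in libraries of normal and 19.5% to 25.6% in those of oncosphere culture. The epithelial keratins KRT7, KRT8 and KRT18 were at 630 TPM or more in every library, whereas EPCAM was at 0.37 to 9.40 TPM in A549 and 11.9 to 51.0 TPM in H2023, and KRT19 at 0.29 to 101 TPM and 126 to 798 TPM. CDH1, another epithelial marker, was at 17.7 to 84.5 TPM in A549 and 12.7 to 40.15 TPM in H2023. Of the lung epithelial markers, NAPSA was at 1.02 to 6.03 TPM over all libraries, and NKX2-1 and SFTPB had no value here. The leukocyte, endothelial and fibroblast markers PTPRC, CD3E, VWF, CDH5 and DCN had no value here. PECAM1 reached 2.76 TPM, COL1A1 8.46 TPM and LUM 3.53 TPM. CD14 was at 6.61 to 47.6 TPM in A549 and 0.35 to 2.05 TPM in H2023.

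Across the libraries the 9 members spanned 2.84 to 144 TPM. ZFP36L1 was the most abundant on average (92.8 TPM over 16 libraries), followed by ZFP36 (56.9 TPM), ZC3H12A (42.4 TPM) and ZFP36L2 (31.3 TPM). RC3H1 and ZC3H12C were the least abundant, at means of 5.79 and 5.98 TPM. ZFP36L2 varied most, 9.09-fold between its highest and lowest library, and RC3H1 least, 2.12-fold.

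**Figure D1:**
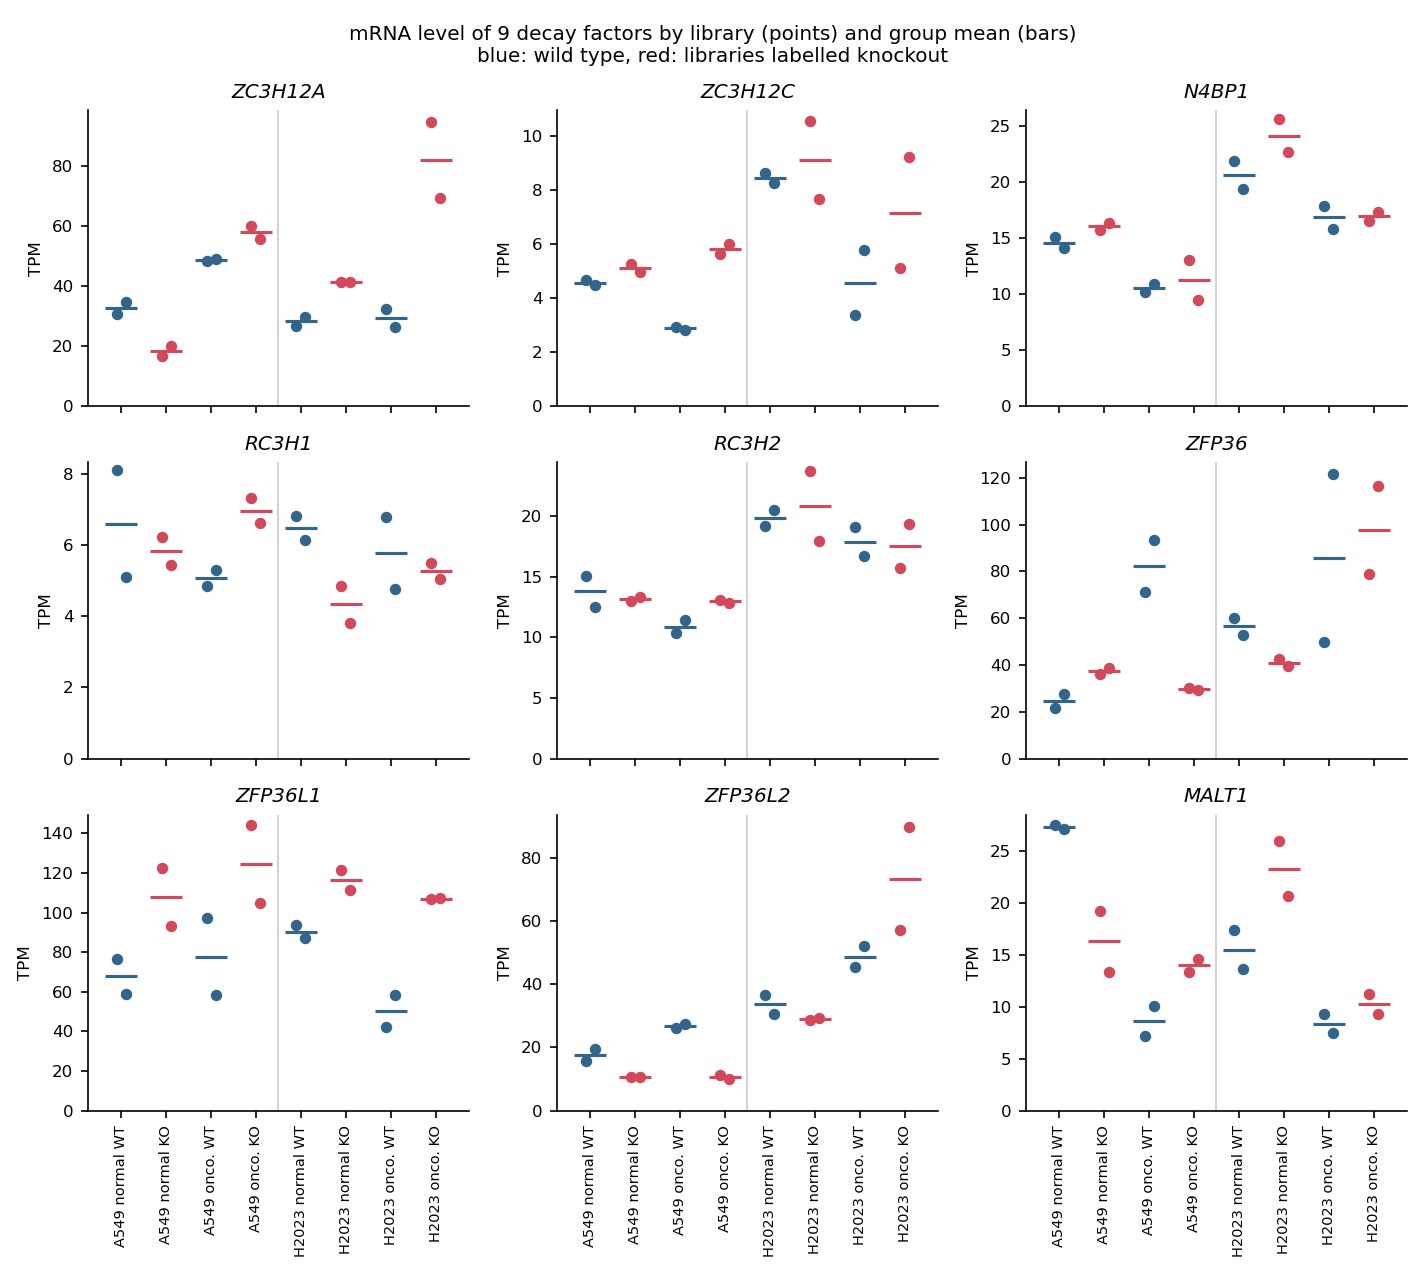
TPM of the 9 members in each of the 16 libraries, by line, culture and genotype, with points for libraries and lines for group means (n = 2). ZC3H12A is lowest in A549 libraries labelled knockout in normal culture (16.9 and 19.9 TPM) and highest in H2023 libraries labelled knockout in oncosphere culture (94.6 and 69.2 TPM).

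The first question was which of these factors differed between libraries labelled knockout and wild type. 3 of 9 members fell and none rose in A549 normal culture, where 17.7% of all genes were called (7.32% higher and 10.4% lower). 2 members rose and 2 fell in A549 oncosphere culture, against 20.7% of all genes called (10.2% higher and 10.5% lower). In H2023 normal culture limma called 0 of 9 members, with 3 at an unadjusted p under 0.05, where 3.0% of all genes were called (1.03% higher and 1.97% lower). In H2023 oncosphere culture 2 of 9 members rose, against 5.56% of all genes (3.17% higher and 2.4% lower). The authors' deposited tables list 5, 4, 4 and 2 of the members with an adjusted p under 0.05 in the same order, where 22.1%, 20.7%, 10.8% and 5.07% of genes were listed. Median log2 fold changes of the members were -0.06, 0.24, 0.08 and 0.29, beside -0.03, 0.03, 0.01 and 0.06 over all genes. Groups did not overlap for 7, 8, 7 and 4 members, and for 61.7%, 60.5%, 50.6% and 47.5% of all genes.

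**Figure D2:**
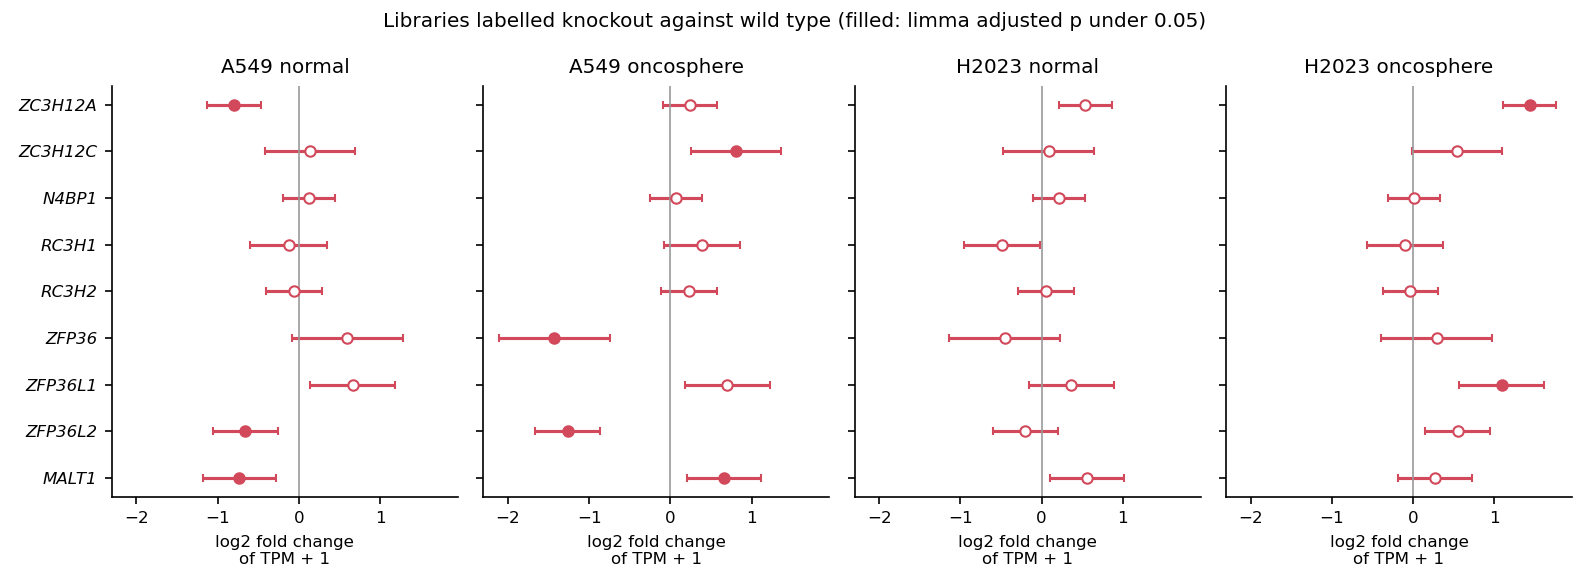
Log2 fold change of TPM + 1, libraries labelled knockout over wild type, for each member in the 4 line and culture settings, with 95% confidence intervals from limma and filled points for called members. ZC3H12A runs from -0.80 in A549 normal culture to 1.43 in H2023 oncosphere culture, and ZFP36L2 lies at -1.26 in A549 oncosphere culture.

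ZC3H12A (ENSG00000163874, chromosome 1, 37474552 to 37484379, + strand, GRCh38) is the targeted gene. Its level in A549 normal culture was 30.7 and 34.9 TPM in wild type and 16.9 and 19.9 TPM in libraries labelled knockout. Both libraries labelled knockout lay below both wild-type ones, and the gene fell (log2 fold change -0.80, SE 0.15, limma adjusted p = 0.00387). Under A549 oncosphere culture it was at 48.5 and 49.2 TPM in wild type and 60.2 and 55.6 TPM in libraries labelled knockout, higher without overlap but not called (0.24, SE 0.15, limma adjusted p = 0.304). The authors' deposited table gives 0.45 with an adjusted p of 0.0171 there. In H2023 normal culture wild type was at 26.8 and 29.9 TPM and the libraries labelled knockout at 41.5 and 41.5 TPM. The groups were again apart, with 0.54 (SE 0.15, limma adjusted p = 0.0835) and, in the authors' deposited table, 0.55 with an adjusted p of 0.00800. In H2023 oncosphere culture wild type was at 32.5 and 26.4 TPM and the libraries labelled knockout at 94.6 and 69.2 TPM. This was the largest rise of a member in any of the 4 knockout comparisons (1.43, SE 0.15, limma adjusted p = 4.50e-04), and it was called with each of the 16 libraries left out in turn. In a fit to only the 4 libraries of that comparison its adjusted p was 0.221, and that fit called 0 genes in either H2023 comparison. In 3 of 4 comparisons the targeted mRNA was thus higher where the label says knockout, and the edit was not examined, so directions below are those of libraries labelled knockout.

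The knockout difference in ZC3H12A was itself different between settings. In A549 it was higher in oncosphere than in normal culture by 1.04 (SE 0.21, limma adjusted p = 0.0124), and the change of sign came from a fall in one culture and an uncalled rise in the other. In H2023 the same difference between cultures was 0.90 (SE 0.21, limma adjusted p = 0.324, unadjusted p = 0.00125). H2023 exceeded A549 by 1.34 in normal culture (SE 0.21, limma adjusted p = 0.00232) and by 1.19 in oncosphere culture (SE 0.21, limma adjusted p = 0.00278). Among all genes, 9.71% were called for the A549 culture difference, 0.00549% for the H2023 one, and 12.1% and 16.3% for the line differences in normal and oncosphere culture. These comparisons share libraries with one another.

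Culture also moved ZC3H12A. It rose in oncosphere culture in A549 wild type (0.56, SE 0.15, limma adjusted p = 0.0101, without replicate 1 of A549 wild type in normal culture 0.0817). The rise was 1.60 in A549 libraries labelled knockout (SE 0.15, limma adjusted p = 2.48e-05) and 0.95 in H2023 libraries labelled knockout (SE 0.15, limma adjusted p = 5.44e-04). In H2023 wild type the difference was 0.05 (SE 0.15, 95% interval -0.28 to 0.38). By group mean the order from high to low was H2023 knockout in oncosphere culture, A549 knockout and then A549 wild type in oncosphere culture, H2023 knockout in normal culture, A549 wild type in normal culture, H2023 wild type in oncosphere and in normal culture, and A549 knockout in normal culture. The libraries of the fifth, sixth and seventh groups overlapped in TPM with their neighbours among these 3, and the other neighbours did not overlap.

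ZC3H12A-DT is a noncoding transcript on the opposite strand (chromosome 1, 37454879 to 37474411) that starts 141 bases from ZC3H12A, inside the window printed above. It was added after its values were seen. Levels in A549 normal culture were 11.2 and 10.6 TPM in wild type and 6.56 and 6.75 TPM in libraries labelled knockout, a difference of -0.63 that was not called (SE 0.21, limma adjusted p = 0.0535). It was at 16.7 and 20.1 TPM in wild type and 8.85 and 12.9 TPM in libraries labelled knockout in A549 oncosphere culture, and it fell (-0.72, SE 0.21, limma adjusted p = 0.0267), where ZC3H12A was at 0.24. In H2023 the differences were -0.25 and 0.15 in normal and oncosphere culture, with limma adjusted p = 0.586 and 0.754. In H2023 oncosphere culture the 95% interval of the ZC3H12A-DT difference ran from -0.31 to 0.60, while ZC3H12A rose by 1.43. The A549 call was lost without either wild-type library of oncosphere culture or replicate 1 of the knockout there (adjusted p 0.0536 to 0.207). Whether reads were counted by strand is not stated.

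ZC3H12C (ENSG00000149289, chromosome 11, 110093361 to 110171841, + strand) encodes Regnase-3, a relative of Regnase-1. It lies within the span of RDX on the opposite strand, with no shared exon base. A549 oncosphere culture gave 2.95 and 2.84 TPM in wild type and 5.66 and 6.02 TPM in libraries labelled knockout, and it rose (0.81, SE 0.25, limma adjusted p = 0.0409). That call was lost when any of 10 of the 16 libraries was left out, namely all 8 A549 libraries and both H2023 wild-type libraries in normal culture (adjusted p 0.0527 to 0.165), and its fold change then stayed between 0.77 and 0.85. Relative to the median expressed gene (mean of at least 1 TPM), this rise was 0.77 and not called (limma adjusted p = 0.0522). In the remaining 3 knockout comparisons ZC3H12C was not called, at 0.13 in A549 normal, 0.08 in H2023 normal and 0.54 in H2023 oncosphere culture. In H2023 wild type it was at 8.64 and 8.28 TPM in normal and 3.37 and 5.79 TPM in oncosphere culture, a fall of -0.80 (SE 0.25, limma adjusted p = 0.0360). There the median expressed gene (mean of at least 1 TPM) shifted by -0.24, and relative to it ZC3H12C lay at -0.56 with an adjusted p of 0.146. Without replicate 1 or 2 of H2023 wild type in normal culture, or replicate 1 in oncosphere culture, the adjusted p was 0.103 to 0.249.

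N4BP1 (ENSG00000102921, chromosome 16, 48538726 to 48620148, − strand) encodes a relative of the Regnases in its nuclease domain and is itself cleaved by MALT1. It was not called in any knockout comparison, with log2 fold changes from 0.01 to 0.21. It fell in oncosphere culture in 3 of 4 settings. In A549 wild type it went from 15.1 and 14.2 to 10.2 and 10.9 TPM (-0.44, SE 0.15, limma adjusted p = 0.0311). In A549 libraries labelled knockout it went from 15.7 and 16.4 to 13.0 and 9.49 TPM (-0.49, SE 0.15, limma adjusted p = 0.0306), and in H2023 libraries labelled knockout from 25.6 and 22.7 to 16.5 and 17.4 TPM (-0.48, SE 0.15, limma adjusted p = 0.0243). Each of these groups was apart from its partner. No share of all genes apart in this way was taken for culture, so how common such separation is there is not known. With TPM rescaled to nuclear genes all 3 calls were lost (-0.31, -0.43 and -0.27, adjusted p 0.113, 0.0527 and 0.197), and the mitochondrial share of TPM was higher in oncosphere culture. Leaving out single libraries of each comparison also ended the calls, with adjusted p up to 0.138, 0.253 and 0.155.

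MALT1 (ENSG00000172175, chromosome 18, 58671386 to 58754477, + strand) is the protease that cleaves Regnase-1 and N4BP1 after antigen-receptor or related signals. Its exons overlap those of 3 noncoding genes on the opposite strand by 384, 56 and 625 of 11527 bases, so its value is uncertain where counting ignored strand. A549 normal culture gave 27.5 and 27.1 TPM in wild type and 19.3 and 13.4 TPM in libraries labelled knockout, and fell (-0.73, SE 0.21, limma adjusted p = 0.0310). A549 oncosphere culture gave 7.18 and 10.0 TPM in wild type and 13.4 and 14.6 TPM in libraries labelled knockout, and rose (0.66, SE 0.21, limma adjusted p = 0.0430). Both contrasts were without overlap and opposite in sign, and their difference was 1.39 (SE 0.30, limma adjusted p = 0.0147). In limma fits to only the 4 libraries of each contrast, the adjusted p was 0.0689 for the fall and 0.0943 for the rise. The rise was also not called with only the 8 A549 libraries (0.0583) or relative to the median gene (0.0578). The fall was lost without either wild-type library or replicate 2 of the knockout (adjusted p 0.0939 to 0.239). The rise was lost without either wild-type library of normal culture, replicate 1 of wild type in oncosphere culture or either knockout library there (0.0570 to 0.288), and the authors' deposited table gives 0.57 with an adjusted p of 0.0659. The difference was lost in 4 single-library omissions, replicate 1 of wild type and replicate 2 of the knockout in normal culture and replicate 1 of wild type and replicate 2 of the knockout in oncosphere culture (0.0539 to 0.0582).

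In H2023, MALT1 was at 17.4 and 13.6 TPM in wild type and 26.0 and 20.7 TPM in libraries labelled knockout in normal culture, higher without overlap but not called (0.56, SE 0.21, limma adjusted p = 0.182). The authors' deposited table gives 0.49 with an adjusted p of 0.0352. The knockout difference in normal culture was higher in H2023 than in A549 by 1.29 (SE 0.30, limma adjusted p = 0.0152). That call was lost without A549 wild type replicate 1, A549 knockout replicate 2, H2023 wild type replicate 2 or H2023 knockout replicate 1, all in normal culture (0.0524 to 0.0657). In oncosphere culture H2023 had 9.27 and 7.49 TPM in wild type and 11.3 and 9.34 TPM in libraries labelled knockout (0.27, SE 0.21, limma adjusted p = 0.508). MALT1 fell with oncosphere culture in A549 wild type by -1.58 (SE 0.21, limma adjusted p = 8.87e-05), in H2023 libraries labelled knockout by -1.10 (SE 0.21, adjusted p = 0.00167), and in H2023 wild type by -0.81 (SE 0.21, adjusted p = 0.0128). The last call was lost relative to the median gene (-0.57, adjusted p = 0.0743) and without replicate 1 of H2023 wild type in normal or replicate 2 in oncosphere culture (0.0895 to 0.104). In A549 libraries labelled knockout the culture difference was -0.19 (SE 0.21, 95% interval -0.64 to 0.27).

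RC3H1 (ENSG00000135870, chromosome 1, 173931214 to 174022297, − strand) and RC3H2 (ENSG00000056586, chromosome 9, 122844556 to 122905341, − strand) encode the Roquins. Neither was called in any knockout or culture comparison. RC3H1 stayed between 3.82 and 8.11 TPM over the 16 libraries, with knockout differences from -0.49 (H2023 normal culture, SE 0.21) to 0.39 (A549 oncosphere culture, SE 0.21). RC3H2 lay between 10.4 and 23.8 TPM, with knockout differences from -0.06 to 0.23. RC3H2 exceeded RC3H1 in every library, by 1.79-fold to 4.90-fold in TPM. The groups' ratio was 2.16 in A549 wild type and 3.08 in H2023 wild type in normal culture. Between lines, RC3H2 was higher in H2023 than in A549 wild type in normal culture (0.50, SE 0.16, limma adjusted p = 0.0234) and in oncosphere culture (0.67, SE 0.16, adjusted p = 0.00419). RC3H1 differed by 0.00 and 0.14, with adjusted p of 0.997 and 0.619.

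ZFP36 (ENSG00000128016, chromosome 19, 39406813 to 39409412, + strand) encodes TTP, the best known AU-rich element binding decay factor. In A549 normal culture it was at 21.5 and 27.7 TPM in wild type and 36.0 and 38.7 TPM in libraries labelled knockout, higher without overlap but not called (0.59, SE 0.31, limma adjusted p = 0.218). The authors' deposited table gives 0.63 with an adjusted p of 0.00455 there. Under A549 oncosphere culture wild type was at 71.3 and 93.5 TPM and the libraries labelled knockout at 30.0 and 29.5 TPM, a fall of -1.43 (SE 0.31, limma adjusted p = 0.00669). The fall was lost without replicate 2 of that wild type (adjusted p = 0.0534). The knockout effects in the A549 cultures differed by -2.02 (SE 0.44, limma adjusted p = 0.0169). That difference was lost without replicate 1 of wild type or replicate 2 of the knockout in normal culture, or replicate 2 of the knockout in oncosphere culture (0.0574 to 0.0730). With culture, ZFP36 rose in A549 wild type by 1.70 (SE 0.31, limma adjusted p = 9.88e-04), and in A549 libraries labelled knockout it differed by -0.32 (SE 0.31, adjusted p = 0.531).

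In H2023 normal culture ZFP36 was at 60.2 and 53.0 TPM in wild type and 42.4 and 39.7 TPM in libraries labelled knockout (-0.45, SE 0.31, limma adjusted p = 0.508). The authors' deposited table gives -0.51 with an adjusted p of 0.00959 there, opposite in sign to A549 normal culture. In H2023 oncosphere culture the wild-type libraries were far apart, at 50.0 and 122 TPM, and spanned both libraries labelled knockout, at 79.1 and 117 TPM (0.29, SE 0.31, limma adjusted p = 0.659). The knockout difference in oncosphere culture was higher in H2023 than in A549 by 1.72 (SE 0.44, limma adjusted p = 0.0204). It was lost in the fit to only those 8 libraries (adjusted p = 0.0931) and without replicate 2 of A549 wild type, of A549 knockout or of H2023 knockout in that culture (0.0613 to 0.0787). In H2023 libraries labelled knockout ZFP36 rose in oncosphere culture by 1.21 (SE 0.31, limma adjusted p = 0.0113). That call was lost without replicate 2 of the knockout in either culture (0.0614 to 0.10) and in the fit to the 8 H2023 libraries (0.0679).

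ZFP36L1 (ENSG00000185650, chromosome 14, 68787660 to 68796253, − strand) was higher in libraries labelled knockout than in wild type in all 4 comparisons, each without overlap. A549 wild type in normal culture was at 76.6 and 59.1 TPM and the libraries labelled knockout at 123 and 93.2 TPM (0.66, SE 0.24, limma adjusted p = 0.0788). In A549 oncosphere culture the levels were 97.1 and 58.3 TPM against 144 and 105 TPM (0.70, SE 0.24, limma adjusted p = 0.0577), and in H2023 normal culture 93.5 and 87.0 TPM against 121 and 111 TPM (0.36, SE 0.24, limma adjusted p = 0.479). In H2023 oncosphere culture they were 42.3 and 58.6 TPM against 107 and 108 TPM, and ZFP36L1 rose (1.09, SE 0.24, limma adjusted p = 0.0235). The call was lost without replicate 1 of that wild type or either knockout library there (0.0888 to 0.122) and in the fit to only those 4 libraries (0.231). The authors' deposited tables give 0.78, 0.61, 0.39 and 1.06 with adjusted p of 1.76e-04, 0.0863, 0.0125 and 4.88e-05, so 3 of 4 pass there. The differences between these effects were not called: 0.04 between cultures in A549, 0.73 in H2023, -0.30 between lines in normal culture and 0.39 in oncosphere culture. In H2023 wild type ZFP36L1 fell in oncosphere culture (-0.84, SE 0.24, limma adjusted p = 0.0213), which was lost relative to the median gene (-0.61, adjusted p = 0.0971) and without replicate 1 or 2 in normal or replicate 1 in oncosphere culture (0.0638 to 0.142).

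ZFP36L2 (ENSG00000152518, chromosome 2, 43222402 to 43226609, − strand) is the third member of the TTP family. A549 normal culture gave 15.7 and 19.4 TPM in wild type and 10.6 and 10.7 TPM in libraries labelled knockout, and fell (-0.66, SE 0.18, limma adjusted p = 0.0271). Without any 1 of these 4 libraries the adjusted p was 0.0505 to 0.151. Under A549 oncosphere culture wild type was at 26.2 and 27.3 TPM and the libraries labelled knockout at 11.3 and 9.88 TPM, a fall of -1.26 (SE 0.18, limma adjusted p = 4.36e-04) that was called with every library left out in turn. Neither H2023 difference was called. There ZFP36L2 was at 36.7 and 30.7 against 28.7 and 29.5 TPM in normal culture (-0.20, SE 0.18, limma adjusted p = 0.625) and at 45.4 and 52.0 against 57.1 and 89.8 TPM in oncosphere culture (0.55, SE 0.18, limma adjusted p = 0.102). The knockout difference in oncosphere culture was higher in H2023 than in A549 by 1.82 (SE 0.26, limma adjusted p = 6.98e-04). ZFP36L2 rose with oncosphere culture in A549 wild type (0.59, SE 0.18, limma adjusted p = 0.0215, lost without replicate 1 of wild type in either culture or replicate 2 in oncosphere culture at 0.0652 to 0.159). It rose by 1.27 in H2023 libraries labelled knockout (SE 0.18, limma adjusted p = 2.71e-04) and differed by -0.01 in A549 ones (SE 0.18).

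The 3 TTP family genes were also added up, as sums and shares of TPM with no test. In A549 normal culture the sum was 110 ± 5.47 TPM in wild type and 156 ± 18.9 TPM in libraries labelled knockout (SD, n = 2 each). In A549 oncosphere culture it was 187 ± 11.0 and 165 ± 29.4 TPM, in H2023 normal culture 181 ± 13.9 and 187 ± 8.58 TPM, and in H2023 oncosphere culture 185 ± 66.8 and 278 ± 50.2 TPM. ZFP36L1 made up 41.2% of the family in A549 wild type in oncosphere culture and 75.2% in the libraries labelled knockout, while ZFP36 made up 44.4% and 18.3%. In H2023 oncosphere culture ZFP36L1 made up 28.0% and 39.1%, and ZFP36L2 27.7% and 26.1%.

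**Figure D3:**
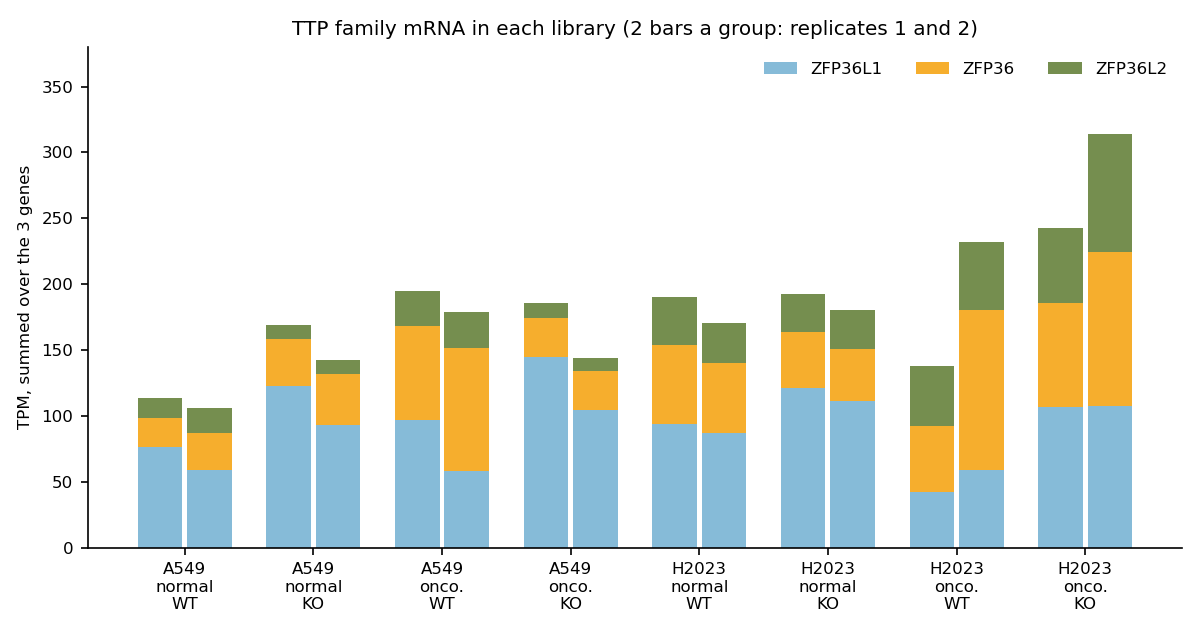
Summed TPM of ZFP36, ZFP36L1 and ZFP36L2 in each of the 16 libraries, stacked by gene, with bars from 0. In A549 oncosphere culture the ZFP36 part is large in wild type (71.3 and 93.5 TPM) and small in libraries labelled knockout (30.0 and 29.5 TPM).

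The effect of culture over all members was counted next. In A549 wild type 3 of 9 members rose and 2 fell in oncosphere culture, where 41.5% of all genes were called (19.1% higher and 22.4% lower). In A549 libraries labelled knockout 1 rose and 1 fell, against 22.4% (11.4% higher and 11.0% lower). In H2023 wild type 3 fell, against 27.4% (5.17% higher and 22.2% lower), and in H2023 libraries labelled knockout 3 rose and 2 fell, against 32.5% (9.76% higher and 22.7% lower). The shift of the median expressed gene was -0.24 in H2023 wild type and -0.17 in H2023 libraries labelled knockout, and under 0.1 in size in A549. Relative to it, none of the 3 falls in H2023 wild type was called, and ZFP36L2, at 0.52 before (limma adjusted p = 0.0538), was called as higher (0.76, adjusted p = 0.0132).

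**Figure D4:**
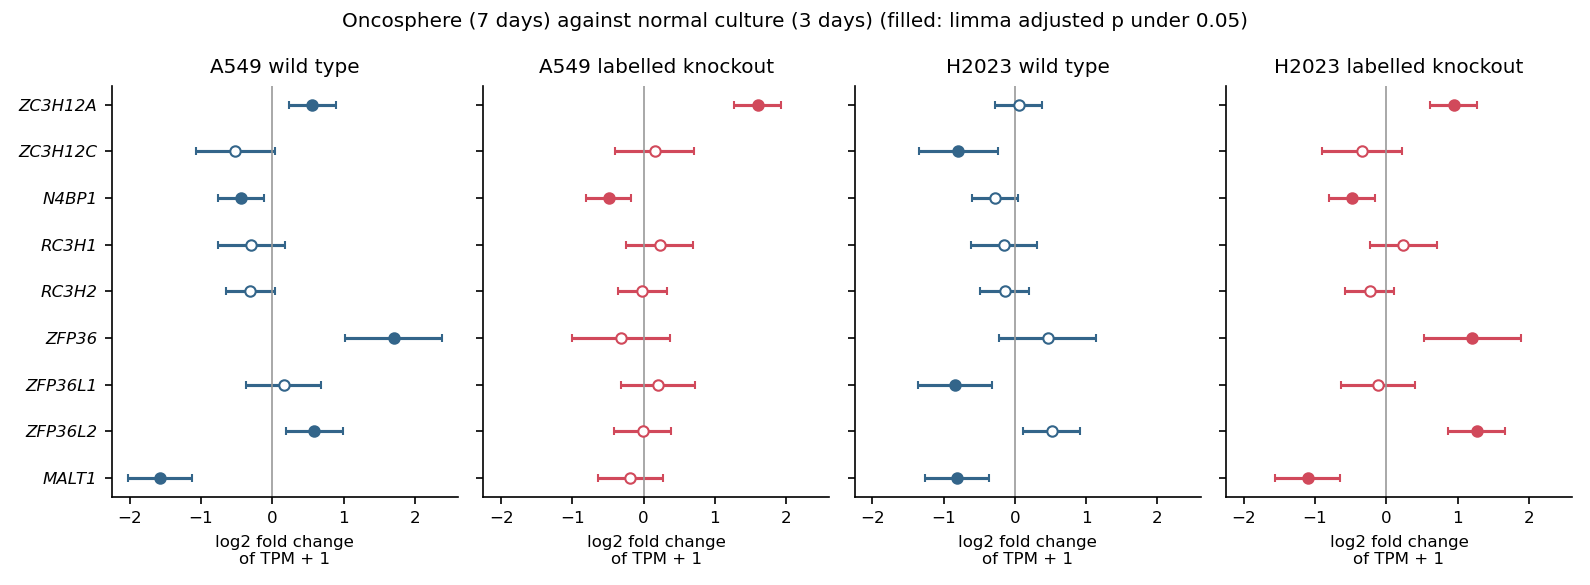
Log2 fold change of TPM + 1, oncosphere over normal culture, for each member in each line and genotype, with 95% confidence intervals from limma and filled points for called members. ZC3H12A lies at 1.60 in A549 libraries labelled knockout and at 0.05 in H2023 wild type, and MALT1 lies below 0 in all 4 settings, from -1.58 to -0.19.

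Between the wild-type lines, 5 members were higher and 1 lower in H2023 than in A549 in normal culture, where 41.5% of all genes were called (26.6% higher and 14.9% lower) and the median expressed gene shifted by 0.16. ZFP36 was higher by 1.18 (SE 0.31, limma adjusted p = 0.00980), ZFP36L2 by 0.91 (SE 0.18, adjusted p = 0.00190) and ZC3H12C by 0.76 (SE 0.25, adjusted p = 0.0310), and MALT1 was lower (-0.79, SE 0.21, adjusted p = 0.00950). N4BP1 (0.47) and RC3H2 (0.50) were the other two, and with ZC3H12C they were not called relative to the median gene (adjusted p 0.0806 to 0.114). Leaving out single wild-type libraries of normal culture ended the calls of ZC3H12C (any of the 4), N4BP1 (all but replicate 2 of H2023), RC3H2 (all but replicate 1 of A549), ZFP36 (replicate 1 of either line) and MALT1 (replicate 2 of H2023), with adjusted p from 0.0572 to 0.159. In oncosphere culture 4 members were called, against 47.8% of all genes (23.4% higher and 24.4% lower): N4BP1 (0.63), RC3H2 (0.67) and ZFP36L2 (0.84) higher and ZC3H12A lower (-0.72, SE 0.15, limma adjusted p = 0.00208). Each of these 4 was called with every library left out in turn.

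The member proteins work with shared machinery, so 7 lists of partners and regulators were set beside them, 83 of 85 listed genes having values. In the knockout comparisons 4 rose and 6 fell in A549 normal culture (12.0% of the 83, beside 17.7% of all genes called), and 10 rose and 5 fell in A549 oncosphere culture (18.1% beside 20.7%). In H2023, 1 rose and 1 fell in normal culture (2.41% beside 3.0%) and 0 rose and 3 fell in oncosphere culture (3.61% beside 5.56%). The listed genes' share lay below that of all genes in these 4 comparisons, a difference that was not tested. The Regnase relatives KHNYN (41.4 and 37.1 TPM in wild type, 26.3 and 26.4 TPM in libraries labelled knockout) and NYNRIN (0.94 and 1.86 against 0.24 and 0.28 TPM) fell in A549 oncosphere culture, by -0.56 and -0.90. NYNRIN lay close to the lower end of the measured range, and its call was lost without replicate 2 of wild type or either knockout library (0.0954 to 0.172) and in the fit to only those 4 libraries (0.0555). Of 18 CCR4-NOT and adaptor genes, 3 rose and 1 fell in A549 oncosphere culture, where 20.7% of all genes were called. BTG2, an adaptor that binds the deadenylase, rose there (6.86 and 4.58 to 11.4 and 16.9 TPM, 1.17, limma adjusted p = 0.00268), and PAN2, a subunit of another deadenylase, fell (57.6 and 61.1 to 29.3 and 28.1 TPM, -1.02, adjusted p = 0.00432).

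Of 18 decapping and decay genes, 1 rose and 2 fell in A549 normal culture, where 17.7% of all genes were called. Among them LSM4 fell from 278 and 281 to 201 and 190 TPM (-0.51, limma adjusted p = 0.00988). The LSM4 call was lost without replicate 1 of wild type (-0.52) or replicate 2 of the knockout (-0.47). Among 7 UPF1 partners, 1 was called in a knockout comparison, in A549 oncosphere culture, where 20.7% of all genes were called. It was SMG6, an endonuclease of nonsense-mediated decay, which rose (7.80 and 8.54 to 14.1 and 12.7 TPM, 0.65, limma adjusted p = 0.00492). In the fit to only those 4 libraries its adjusted p was 0.0546. Of 11 further binding proteins, ARID5A, which binds stem-loops that Regnase-1 cuts, fell in normal culture in A549 (-0.57, limma adjusted p = 0.0344) and H2023 (2.36 and 3.10 to 1.09 and 0.93 TPM, -0.89, adjusted p = 0.0144). In the authors' deposited table the A549 fall of ARID5A had an adjusted p of 0.0769. In limma it was lost with a pseudocount of 0.1 (0.0799) and relative to the median gene (0.0550). Only the libraries of the comparison (0.141) or of the line (0.0753) also ended it. With the same restrictions the H2023 call of ARID5A was lost (0.161 and 0.0652). Its A549 call was also lost without either wild-type library or replicate 2 of the knockout (0.0504 to 0.212), and its H2023 call without replicate 2 of wild type or either knockout library (0.0743 to 0.139). Of 10 genes around MALT1, CARD10, the scaffold that joins BCL10 and MALT1 outside immune cells, fell in both A549 cultures (18.8 and 9.61 to 8.05 and 3.97 TPM in normal, 19.3 and 21.6 to 9.59 and 6.18 TPM in oncosphere culture; -1.11 and -1.30, limma adjusted p = 0.0400 and 0.0167). The CARD10 call in normal culture was lost without replicate 1 of wild type or replicate 2 of the knockout (0.310 and 0.296), and marginally without any wild-type library of H2023 normal or A549 oncosphere culture (0.0510 to 0.0513). In oncosphere culture it was lost without either wild-type library or replicate 2 of the knockout (0.0620 to 0.143). The CARD10 call in normal culture was also lost with only the libraries of the comparison (0.141) or of the line (0.0791), and relative to the median gene (0.0509). RBCK1 (HOIL-1), a MALT1 substrate, fell in A549 oncosphere culture from 454 and 289 to 179 and 164 TPM (-1.08, adjusted p = 8.67e-04).

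Among 15 kinases, phosphatases, ligases and deubiquitinases acting on these proteins, DUSP1, a phosphatase of the p38 pathway that controls TTP, was called in opposite directions in 2 settings. It rose in A549 normal culture from 114 and 104 to 310 and 217 TPM (1.24, SE 0.31, limma adjusted p = 0.0170) and fell in H2023 oncosphere culture from 20.5 and 47.6 to 10.8 and 14.3 TPM (-1.27, SE 0.31, adjusted p = 0.0368). The rise was lost without either wild-type library or replicate 1 of the knockout (0.0740 to 0.127). The fall was lost in the fit to only its 4 libraries (0.322), without replicate 2 of wild type or either knockout library there (0.0865 to 0.176), and marginally without either A549 wild-type or H2023 knockout library of normal culture or either A549 knockout library of oncosphere culture (0.0503 to 0.0558). IKBKE fell in A549 normal culture (12.1 and 11.8 to 6.80 and 5.49 TPM, -0.86, limma adjusted p = 0.0160), and without either wild-type library or replicate 2 of the knockout the adjusted p was 0.0578 to 0.118. MAPKAPK3, a kinase that acts downstream of p38, rose in H2023 normal culture (30.0 and 26.9 to 46.1 and 47.6 TPM, 0.70, adjusted p = 0.0333), a call lost without any of these 4 libraries (0.0672 to 0.228) or replicate 1 of A549 knockout in oncosphere culture (0.0501). The MAPKAPK3 call was also lost in limma fits to only the 4 libraries of its comparison (0.126) and to the 8 H2023 libraries (0.0712). In the fit to the 8 H2023 libraries the DUSP1 fall was lost too (0.129). The remaining genes named by the rule were called at adjusted p of 0.0130 to 0.0457. Each of these 9 calls was lost in the fit to only the libraries of its comparison (0.0511 to 0.256) and without at least 1 single library. In A549 normal culture TOB1 (0.59) rose, a call lost without replicate 1 of wild type (0.218) or replicate 2 of knockout (0.176). GIGYF2 (0.49) rose and ELAVL1 (-0.31) fell there, and both calls were lost without any 1 of those 4 libraries (0.0639 to 0.131 and 0.0723 to 0.137). In A549 oncosphere culture EIF4E2 (0.36) rose, a call lost in 10 of the single-library omissions (0.0548 to 0.164), among them each A549 library and both H2023 normal culture libraries labelled knockout. KHSRP (0.34) rose there and lost its call without any 1 of those 4 libraries (0.0662 to 0.0949). BTRC (0.59) also rose, but was at -0.0909 in the authors' deposited table, and its call was lost without either wild-type library or replicate 1 of knockout (0.0640 to 0.180). TANK (0.43) rose there, and its call was lost in 11 single-library omissions (0.0555 to 0.275), which were those of every A549 library except replicate 2 of oncosphere knockout and of both wild-type normal culture and both knockout oncosphere libraries of H2023. CNOT9 (-0.61) fell in H2023 oncosphere culture, a call lost without replicate 2 of wild type (0.0768) or replicate 1 of knockout (0.0841). TANK (-0.58) fell there and lost its call without replicate 2 of wild type or either knockout library (0.111 to 0.172). Centring on the median gene ended the calls of ELAVL1 (0.0621), EIF4E2 (0.0768) and, in A549, TANK (0.0701), and rescaling to nuclear genes those of EIF4E2 (0.0742) and TANK (0.0721). ELAVL1, KHSRP, BTRC, CNOT9 and TANK in both of its comparisons were not called in the authors' deposited table (adjusted p of 0.0678 to 0.853). In the culture comparisons the lists had 10 rises and 28 falls in A549 wild type (45.8% of the 83, beside 41.5% of all genes called) and 6 and 13 in A549 libraries labelled knockout (22.9% beside 22.4%). They had 7 and 31 in H2023 wild type (45.8% beside 27.4%) and 9 and 28 in H2023 libraries labelled knockout (44.6% beside 32.5%). These differences in share were not tested either.

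Correlations of log2(TPM + 1) over the 16 libraries, which share lines, cultures and normalization, are given as a description. The members most alike were N4BP1 and RC3H2 (r = 0.87), followed by ZFP36 and ZFP36L2 (0.79), ZC3H12C and RC3H2 (0.76) and ZC3H12C and N4BP1 (0.70). ZFP36 and MALT1 ran opposite (-0.76). ZC3H12A had no member with r over 0.37 in size. Of 10936 genes with a mean of at least 5 TPM, those most like ZC3H12A were AGFG2 (0.90), TERF2IP (0.90) and EMC10 (0.90), and those most like ZFP36 were PTPRH (0.93), CREB3L1 (0.90) and TENT5A (0.89). For ZFP36L2 they were HIP1R (0.95), NFATC4 (0.95) and KRT19 (0.95), for ZFP36L1 IGFBP6 (0.82), HIF1A (0.82) and ATAT1 (0.81), and for MALT1 AAAS (0.95), BAG4 (0.94) and CCDC86 (0.94). ZC3H12C was most like ARHGAP17 (0.94), UBFD1 (0.92) and LAMP1 (0.89), N4BP1 most like FXR1 (0.96), QKI (0.96) and NPAT (0.96), and RC3H2 most like SMG8 (0.95), PPT1 (0.94) and PIAS2 (0.94). RC3H1 had no gene above 0.70 (SLC41A1 0.70, H3-3A 0.67 and ABCG2 0.66).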

How the data were processed

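16 RNA-seq libraries were compared. RNA came from ReliaPrep kits and 1 µg of it went into TruSeq stranded mRNA libraries, per the labels' protocols. HISAT2, StringTie and GRCh38 are named in the submitters' processing notes, without role or version. The authors deposited 4 tables, 1 per line and culture, with TPM per library, a mean normalized count (an averaged signal over the 4 libraries of a table), a log2 fold change with its error, a test statistic that is a score, a p-value and an adjusted p-value, the last columns named as DESeq2 names them, per the file headers. Each table had 18361 rows. 119 identifiers were repeated with the same values and were used once, leaving 18227 genes. The deposited score ran opposite in sign to the fold change on all 18361 rows and was not used.

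TPM holds no depth, so no count test was made. log2(TPM + 1) was fitted with limma 3.58.1 (R 4.3.3, trend, two-sided) over all 16 libraries as 8 group means, Benjamini-Hochberg adjusted, with 0.05 as the threshold. No gene was filtered out. The fit was tested on simulated data. Alternatives were a pseudocount of 0.1, a mean of at least 1 TPM, only the libraries of a comparison or line, a replicate block, centring on the median gene, TPM rescaled to nuclear genes, the authors' adjusted p, and each library left out. Positions came from the GRCh38 annotation (GENCODE) and promoters from RefSeq. The members and lists were chosen with earlier results of these data known. By rule, up to 2 called genes with the largest change were named from each list and knockout comparison. For each member, the 3 genes with the highest correlation were named too. Outside this rule, ZC3H12A-DT was added after its values were seen, and RDX and the cell type markers were named.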

Additional observations from a re-analysis of the deposited data

Results flagged for a closer look

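8 differences between knockout effects passed limma's adjusted p under 0.05, each a test of the difference itself. Between cultures they were 3 of 9 members in A549, against 9.71% of all genes called, and 0 of 9 in H2023, against 0.00549%. Between lines they were 2 of 9 members in normal culture, against 12.1%, and 3 of 9 in oncosphere culture, against 16.3%. In A549, oncosphere minus normal culture gave 1.04 for ZC3H12A, -2.02 for ZFP36 and 1.39 for MALT1 on the log2 scale. H2023 minus A549 gave 1.34 for ZC3H12A and 1.29 for MALT1 in normal culture. In oncosphere culture it gave 1.19 for ZC3H12A, 1.72 for ZFP36 and 1.82 for ZFP36L2. Those of ZC3H12A and ZFP36L2 held with every library left out in turn, whereas each of those of ZFP36 and MALT1 was lost in some omissions.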

How the results depend on the processing

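Of 42 calls of members over the 14 comparisons, 25 held in every setting other than single-library omissions, 18 with every library left out, and 17 in both. Where 1 library was left out, its group kept a lone library that was assumed to vary like the others. In A549 normal culture the 3 members called became 1 with only the libraries of the comparison and 5 with the replicate block or the authors' adjusted p. The block added ZFP36L1 in A549 normal (0.66, limma adjusted p = 0.00747) and oncosphere culture (0.70, 0.00389), ZFP36 in A549 normal (0.0436) and ZC3H12A in H2023 normal culture (0.0260). In A549 oncosphere culture 4 became 2 when centred. In H2023 normal culture 0 became 1 with the replicate block and 4 by the authors' adjusted p, and in H2023 oncosphere culture 2 became 0 with only the libraries of the comparison. For culture in A549 knockout, 2 became 1 with only the libraries of the comparison, only those of the line, or nuclear rescaling. For culture in H2023 wild type, 3 became 0 with only the libraries of the comparison and 1 with centring or nuclear rescaling. That 1 was ZFP36L2, newly called as higher, and none of the 3 falls was called in either setting. For the lines in normal culture 6 became 3 when centred. Leaving out each library gave 1 to 4, 2 to 5, 0 to 1 and 1 to 2 members in the knockout comparisons (A549 normal, A549 oncosphere, H2023 normal, H2023 oncosphere), 2 to 5, 1 to 2, 0 to 4 and 3 to 5 for culture (A549 wild type and knockout, H2023 wild type and knockout), 2 to 6 and 4 to 6 for lines, and 1 to 3, 0 to 0, 1 to 3 and 2 to 3 for differences of effects (A549, H2023, normal, oncosphere). Same-numbered wild-type and knockout libraries correlated in their deviations with r of 0.0749 in A549 normal and 0.13 in A549 oncosphere culture. In H2023, r was 0.0275 in normal and 0.46 in oncosphere culture. The main fit did not pair libraries by number, also not in H2023 oncosphere culture, where r was highest. The replicate block did pair them. Over all genes, only the libraries of the comparison gave 1971, 2413, 0 and 0 calls in the knockout comparisons against 3233, 3780, 546 and 1014, and 1105 against 4986 for culture in H2023 wild type. For the knockout comparisons in H2023, the 8 libraries of the line gave 147 and 281, and the authors' adjusted p gave 1665 in normal culture. The H2023 minus A549 difference in oncosphere culture gave 1795 against 2966 with only the libraries of the comparison. Signs turned with the authors' adjusted p for RC3H1 in A549 normal (0.0671) and H2023 oncosphere culture (0.0150), and for N4BP1 (-0.0688), RC3H2 (-0.0481) and BTRC (-0.0909) in A549 oncosphere culture, and for N4BP1 in H2023 oncosphere culture when centred (-0.0629) or rescaled to nuclear genes (-0.0120). Of these only BTRC was called. With single libraries left out, uncalled values crossed 0 for RC3H1 (-0.42 to 0.16) and RC3H2 (-0.19 to 0.0672) in A549 normal, N4BP1 in A549 oncosphere (-0.14 to 0.28), ZC3H12C (-0.12 to 0.29), RC3H2 (-0.14 to 0.25) and ZC3H12A-DT (-0.55 to 0.0428) in H2023 normal, and N4BP1 (-0.0760 to 0.0922), RC3H1 (-0.31 to 0.12), RC3H2 (-0.18 to 0.11) and ZFP36 (-0.34 to 0.93) in H2023 oncosphere culture. The causes were not tested.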
